A study of Homo sapiens with 6 samples.

Results

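Interferon-stimulated genes are the genes that cells switch on after interferon reaches its receptors. A list of 52 such genes, named one by one and sorted by antiviral family, was followed here among the 62696 annotated genes counted in DMS53 cells. DMS53 is an established cell line of neuroendocrine (NE) small cell lung cancer (SCLC). The control group held 3 libraries from cells transduced with the empty lentiviral vector, and the OC2-OE group held 3 libraries from cells transduced with the same vector carrying ONECUT2 (OC2), a homeodomain transcription factor. Both groups had gone through lentiviral transduction and puromycin selection. The introduced OC2 is tagged with a green fluorescent protein, which the empty vector encodes without OC2. The paper gives no viral dose for either group. Expression of OC2 was constitutive and came from 1 cell line, and the libraries are numbered 1 to 3 in each group.

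In the classical pathway, type I and type III interferons act through receptor-bound Janus kinases on a factor that contains STAT2 and IRF9 and binds the interferon-stimulated response element (ISRE) in the promoters of their target genes. Interferon gamma acts mainly at a different element, the gamma-activated sequence (GAS), and factors of the IRF family can also bind the ISRE. The products of the target genes sense viral RNA, degrade or sequester it, block viral entry, modify proteins with ISG15 or feed back on the pathway, and many tumor cell lines express some of them without added interferon.

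The libraries held between 16533284 and 19099337 counts. ONECUT2 itself had 465, 412 and 394 counts in control libraries 1 to 3 and 74031, 68853 and 72763 counts in the OC2-OE libraries. Those counts include any reads from the introduced coding sequence, so they check the labels and not the cells' own gene. All 8 NE markers on a fixed list were measured in every library, with summed levels of 5400 to 5454 CPM, counts scaled to the size of the library, in control and 3320 to 3385 CPM in OC2-OE cells. CHGA rose and the other 7 fell. Markers of other cell types were read beside them. Of 11 immune cell markers, CD3E, NKG7 and CLEC4C had 0 counts in all 6 libraries and PTPRC had 0 counts in control and 3 in OC2-OE libraries. The summed level of the 11 markers was 3.96 to 4.48 CPM in control and 7.44 to 9.11 CPM in OC2-OE cells, and most of it came from the 2 markers that reached the test, CD14 and LYZ, which were both called higher.

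The promoters of the members were searched for the ISRE. RefSeq promoter windows on GRCh38.p14, each covering 250 bases before to 50 bases after an annotated start, were found for 40 of the 52 members and gave 56 windows. No window was found for IRF7, DHX58, ZNFX1, OAS2, OASL, IFIT2, IFITM2, LAMP3, MX2, GBP2, USP18 and TRIM22. An ISRE core, searched on both strands as GAAA, any 2 bases and GAAA again, was present in 31 of the 56 windows (55.4%) and in 3.57% of all 35116 windows in the table. The following stretches were chosen to show the core in members that rose strongly, in members that did not pass the test and in members that were almost silent. They run 5′ to 3′ on the strand of the gene, with the ISRE core in capitals. A match on the opposite strand reads as the reverse complement. Stretches of 180 bases end at the base before the start, and stretches of 30 bases surround a single core or, for BST2, 2 overlapping cores.
GBP1, chr1:89065316-89065345, minus strand: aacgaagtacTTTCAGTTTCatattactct
IFI44, chr1:78649609-78649788, plus strand: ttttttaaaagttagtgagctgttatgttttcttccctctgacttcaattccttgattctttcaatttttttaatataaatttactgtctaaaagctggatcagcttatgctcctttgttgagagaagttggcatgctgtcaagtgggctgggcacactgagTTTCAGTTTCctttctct
IFIT3, chr10:89327831-89327860, plus strand: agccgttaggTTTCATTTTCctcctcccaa
IFI6, chr1:27672193-27672372, minus strand: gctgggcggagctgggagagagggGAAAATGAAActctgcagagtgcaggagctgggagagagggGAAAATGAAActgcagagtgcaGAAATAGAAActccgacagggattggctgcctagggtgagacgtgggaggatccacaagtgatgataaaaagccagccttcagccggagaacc
ISG15, chr1:1013317-1013496, plus strand: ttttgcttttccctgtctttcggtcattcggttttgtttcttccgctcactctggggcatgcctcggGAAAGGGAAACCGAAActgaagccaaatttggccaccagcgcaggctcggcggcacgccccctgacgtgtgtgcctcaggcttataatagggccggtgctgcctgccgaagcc
IFIT5, chr10:89414513-89414542, plus strand: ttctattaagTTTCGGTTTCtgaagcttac
RSAD2, chr2:6877622-6877651, plus strand: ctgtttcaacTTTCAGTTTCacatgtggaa
IFI44L, chr1:78620274-78620303, plus strand: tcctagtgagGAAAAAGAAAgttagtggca
BST2, chr19:17405741-17405770, minus strand: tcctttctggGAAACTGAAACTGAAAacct

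The 10 letters GAAACTGAAA appear, on one strand or the other, in the stretches of GBP1, IFI44, RSAD2 and BST2. These 4 genes had the largest rise, the second largest rise, no call and almost no counts, respectively, as described next. The stretches of GBP1, IFIT5, RSAD2 and BST2 lie in annotated exons of another transcript of the gene or of a neighbouring gene, and those of IFI44, IFIT3, ISG15 and IFI44L hold no annotated exonic base.

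As a group, the members were expressed at a higher level in OC2-OE cells. Their summed level was 1102 to 1122 CPM in the 3 control libraries and 2025 to 2039 CPM in the 3 OC2-OE libraries, so the groups did not overlap. Of the 52 members, 44 had enough counts to be tested with edgeR's quasi-likelihood test. At an adjusted p below 0.001, 37 were higher in OC2-OE cells, 1 was lower and 6 were not called. OASL passed the filter on low counts only through its OC2-OE libraries, and with at least 10 counts required in every library 43 members were tested and 36 were higher. The same threshold called 27.8% of all 17307 tested genes higher and 28.7% lower. The median log2 fold change of the 44 members was 0.99, with quartiles of 0.54 and 1.46, and that of all tested genes was 0.01, with quartiles of -0.36 and 0.40. In 40 tested members every OC2-OE library lay above every control library, a pattern seen in 36.5% of all tested genes, and in 1 member every OC2-OE library lay below, a pattern seen in 36.7%. A rise of at least 1 on the log2 scale was called in 22 members and in 8.29% of all tested genes. In bulk libraries, a transcript present in more cells and more transcript per cell cannot be told apart.

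**Figure D1:**
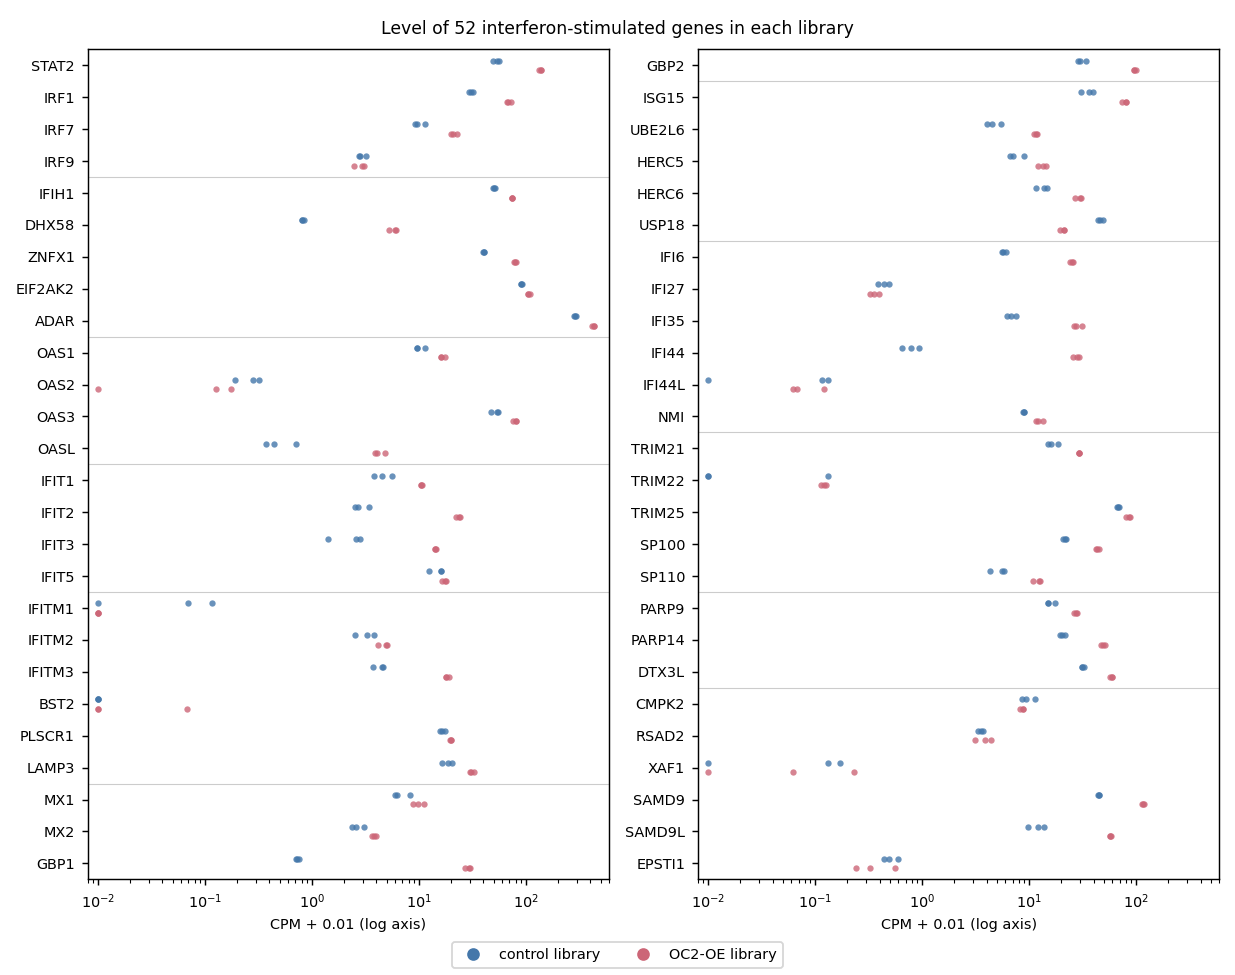
Level of each of the 52 members in each library, in CPM on a log axis, with 0.01 added so that a level of 0 can be drawn. Each point is 1 library, blue for the 3 control and red for the 3 OC2-OE libraries, and lines separate the families. GBP1 lies at 0.696 to 0.738 CPM in control and 27.1 to 29.7 CPM in OC2-OE libraries, IFI44 lies close to it, and USP18 is the tested member that moved the other way past the threshold.

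The size of the change differed widely within some families and less within others, and these differences were not tested. Log2 fold changes ran from 0.48 to 5.14 among the tested IFI-named proteins and NMI. In the PARP and DTX3L family they ran from 0.79 to 1.27. Across the 44 tested members the log2 fold change ran from -1.18 for USP18 to 5.31 for GBP1. The tested members were split at 16.8 CPM, the middle of their mean levels over both groups. Of the 22 lower ones 16 were called higher, and of the 22 higher ones 21, with median log2 fold changes of 1.12 and 0.93. This level includes the OC2-OE libraries, so a member's own change helped to decide its side. The split therefore cannot link level to change. The 6 members that were not called all lay in the lower group, under the same limit. Among them, IFIT5 had a mean of 14.8 CPM in control. IFI35, in the higher group, had 6.84 CPM in control and 28.1 CPM in OC2-OE cells. Below, log2 fold changes compare OC2-OE with control and are given with their standard error (SE).

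**Figure D2:**
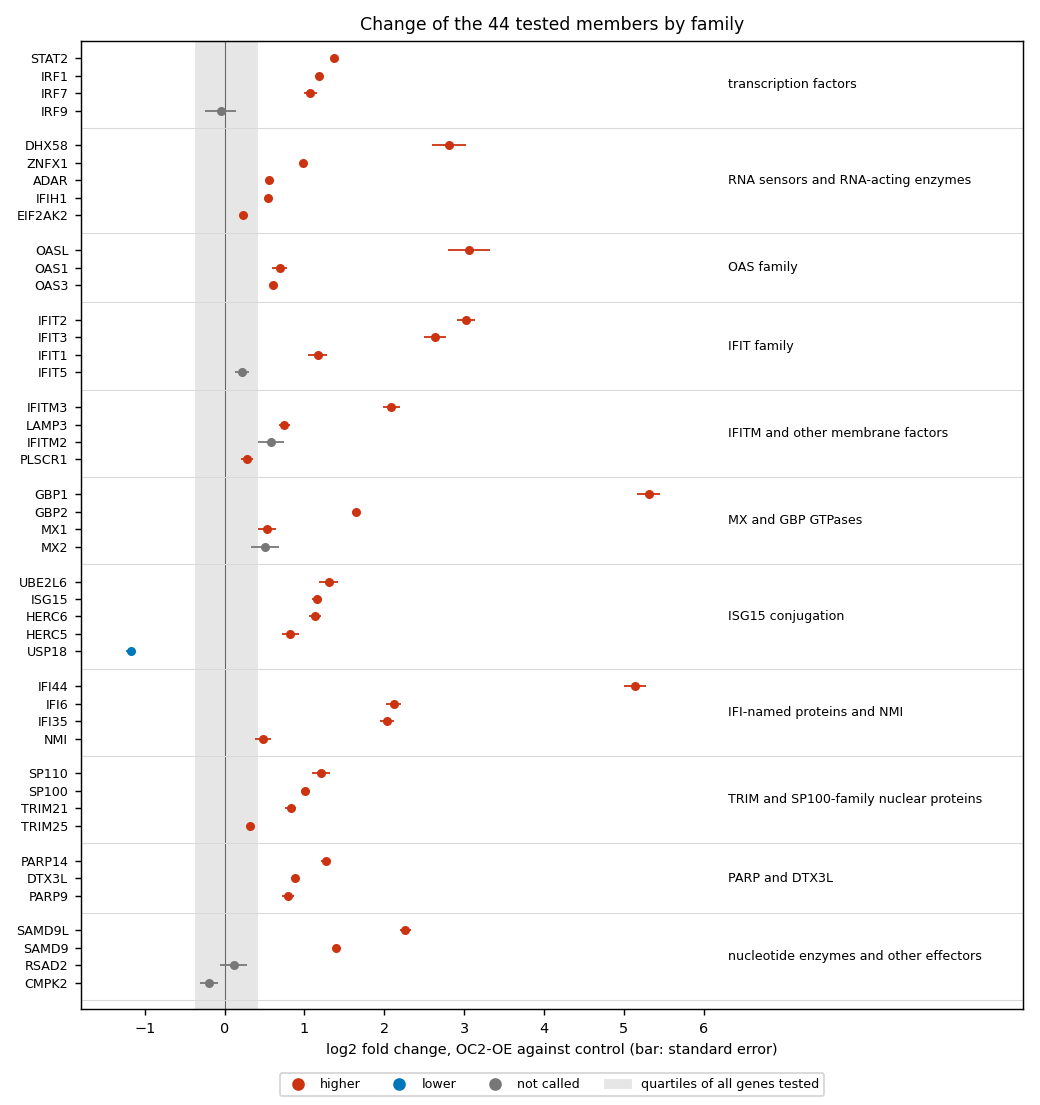
Log2 fold change of the 44 tested members, OC2-OE against control, grouped by family. Points are estimates from edgeR, bars are standard errors, colors give the call at an adjusted p below 0.001, and the grey band spans the quartiles of all tested genes, -0.36 to 0.40. GBP1 at 5.31 and IFI44 at 5.14 lie furthest to the right, and USP18 at -1.18 is the only tested member called lower.

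Among the transcription factors of the pathway, 3 of 4 rose and their median log2 fold change was 1.13. STAT2, a subunit of the factor that binds the ISRE, had 1034, 822 and 870 counts in control and 2650, 2296 and 2519 counts in OC2-OE libraries, a log2 fold change of 1.37 ± 0.04 (edgeR adjusted p = 1.41e-61). It was also the family's most abundant member per kilobase of exon, at 5.66 ± 0.34 CPM per kilobase in control and 14.6 ± 0.36 in OC2-OE cells (SD, n = 3). IRF1, which interferon gamma induces directly, went from 544, 532 and 492 to 1394, 1156 and 1228 counts, by 1.18 ± 0.05 (edgeR adjusted p = 2.84e-44). IRF7, which amplifies type I interferon production, went from 171, 161 and 185 to 383, 361 and 410 counts, by 1.07 ± 0.09 (edgeR adjusted p = 2.62e-22). IRF9, the DNA-binding partner of STAT2, did not follow them. Its counts were 59, 46 and 45 in control and 47, 53 and 53 in OC2-OE libraries, the groups overlapped, and the log2 fold change was -0.05 ± 0.19 (edgeR adjusted p = 0.818). Of the annotated exonic bases of IRF9, 23.9% are shared with another gene on the same strand, where reads are not counted.

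All 5 RNA sensors and RNA-acting enzymes rose, with a median log2 fold change of 0.56, and their groups did not overlap. DHX58, the RIG-I-like receptor LGP2, went from 15, 14 and 13 counts in control to 100, 105 and 108 counts in OC2-OE libraries, a 6.99-fold rise (log2 fold change 2.81 ± 0.21, edgeR adjusted p = 5.42e-24). ZNFX1, a helicase-like sensor of viral RNA, went from 742, 679 and 652 to 1500, 1346 and 1475 counts, by 0.98 ± 0.05 (edgeR adjusted p = 6.04e-41). ADAR, which edits adenosine to inosine in double-stranded RNA, was the most abundant of this family per kilobase, at 23.5 ± 0.37 CPM per kilobase in control and 34.7 ± 0.49 in OC2-OE cells (SD, n = 3). Its counts were 5466, 4744 and 4683 against 8193, 7241 and 7811, a log2 fold change of 0.56 ± 0.02 (edgeR adjusted p = 1.18e-44). IFIH1, the sensor MDA5, rose by 0.55 ± 0.04, and EIF2AK2, the kinase PKR that halts translation, rose by only 0.23 ± 0.04.

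The OAS enzymes make 2′-5′-linked oligoadenylates that activate RNase L. OASL, a family member without that activity that acts on RIG-I signaling, went from 13, 6 and 7 counts to 74, 70 and 88 counts, an 8.34-fold rise (log2 fold change 3.06 ± 0.26, edgeR adjusted p = 1.64e-20). The differences between the OAS genes were not tested. OAS1 went from 179, 191 and 157 to 304, 303 and 293 counts, by 0.69 ± 0.09 (edgeR adjusted p = 2.44e-11). OAS3, the family's most abundant member per kilobase, went from 994, 923 and 772 to 1551, 1384 and 1386 counts, by 0.60 ± 0.04 (edgeR adjusted p = 3.04e-24). OAS2 lies 1934 bases from OAS3 on chromosome 12 and was almost silent, with 5, 3 and 5 counts in control and 0, 2 and 3 counts in OC2-OE libraries, and was not tested.

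The IFIT genes encode proteins that bind viral RNA and lie side by side on chromosome 10, in the order IFIT2, IFIT3, IFIT1 and IFIT5. Their log2 fold changes declined in that order, at 3.03, 2.63, 1.16 and 0.22, and the differences between these genes were not tested. IFIT2 (chr10:89283694-89309271, plus strand) went from 50, 57 and 41 counts to 457, 422 and 401 counts, an 8.15-fold rise (SE of the log2 fold change 0.11, edgeR adjusted p = 8.12e-51). IFIT3 went from 52, 43 and 23 to 275, 243 and 258 counts, a 6.2-fold rise (SE 0.14, edgeR adjusted p = 1.14e-36), and IFIT1 from 105, 76 and 61 to 200, 181 and 193 counts, a 2.24-fold rise (SE 0.12, edgeR adjusted p = 1.62e-15). In control cells IFIT5 was the highest of the 4 per kilobase, at 3.39 ± 0.47 CPM per kilobase against 0.445 to 1.01 for the others. It had 297, 208 and 262 counts in control and 343, 281 and 321 counts in OC2-OE libraries. The IFIT5 levels in CPM did not overlap, but its change did not pass the threshold (SE 0.08, edgeR adjusted p = 0.0153), although its promoter holds 3 ISRE cores. In OC2-OE cells IFIT2 was the highest of the 4, at 5.41 ± 0.29 CPM per kilobase against 3.95 ± 0.21 for IFIT5 (SD, n = 3). Of the annotated exonic bases of IFIT2, 12.1% are shared with another gene.

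The IFITM proteins hinder the fusion of viruses with cell membranes, and IFITM1, IFITM2 and IFITM3 lie next to each other on chromosome 11. IFITM3 went from 86, 76 and 60 counts to 342, 312 and 345 counts, a 4.25-fold rise (log2 fold change 2.09 ± 0.11, edgeR adjusted p = 2.59e-37). IFITM2 had 47, 54 and 61 counts in control and 94, 72 and 91 counts in OC2-OE libraries, with groups that did not overlap and a log2 fold change of 0.58 ± 0.17 that was not called (edgeR adjusted p = 0.00114). IFITM1 had 2, 1 and 0 counts in control and 0 in each OC2-OE library and was not tested. A sum of 0 counts over the 3 OC2-OE libraries allows up to 3 counts, or 0.0548 CPM, for counting error only. The 3 IFITM transcripts are closely similar, so reads that fit more than 1 of them may have been lost or misplaced. LAMP3, a lysosomal membrane protein and the most abundant of this family per kilobase, went from 383, 310 and 264 to 625, 535 and 542 counts, by 0.75 ± 0.07 (edgeR adjusted p = 1.30e-18). PLSCR1, a phospholipid scramblase with antiviral activity, went from 303, 290 and 253 to 376, 348 and 360 counts, by 0.28 ± 0.08 (edgeR adjusted p = 0.00084). The call for PLSCR1 was lost without control library 1 or 3 or any 1 OC2-OE library, at adjusted p-values of up to 0.00849. BST2, or tetherin, which holds budding virus at the cell surface, had 0 counts in every control library and 0, 1 and 0 counts in OC2-OE libraries.

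The large GTPases on the list are the guanylate-binding proteins GBP1 and GBP2 and the MX proteins MX1 and MX2, and the differences between them were not tested. GBP1 (ENSG00000117228.11, chr1:89051882-89065360, minus strand) had 13, 12 and 12 counts in control and 559, 514 and 494 counts in OC2-OE libraries, a 39.6-fold rise (log2 fold change 5.31 ± 0.14, edgeR adjusted p = 2.41e-65). Its level was 0.696 to 0.738 CPM in the control libraries and 27.1 to 29.7 CPM in the OC2-OE libraries. GBP2, whose gene lies 40771 bases away, was already expressed at 30.9 ± 2.9 CPM in control cells and reached 96.6 ± 2.2 CPM (SD, n = 3). Its counts were 554, 573 and 470 against 1900, 1656 and 1732, a log2 fold change of 1.64 ± 0.05 (edgeR adjusted p = 2.33e-60). GBP2 shares 8.60% of its exonic bases with GBP7, and GBP1 has a close paralog, GBP3, so some reads of these genes may be misplaced. MX1, the dynamin-like GTPase that is among the most used markers of a type I interferon response, went from 152, 104 and 97 to 167, 170 and 201 counts. Its log2 fold change was 0.53 ± 0.12 (edgeR adjusted p = 2.86e-05), and the call was lost without control library 2 or 3 or OC2-OE library 3, at adjusted p-values of up to 0.00229. MX2, 10626 bases from MX1, had 57, 39 and 42 counts in control and 73, 68 and 66 counts in OC2-OE libraries, and its log2 fold change of 0.50 ± 0.18 was not called (edgeR adjusted p = 0.00902).

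ISG15 is a ubiquitin-like protein, and the genes for its conjugation and removal moved in different directions. ISG15 itself (ENSG00000187608.10, chr1:1001138-1014540, plus strand) had 565, 606 and 644 counts in control and 1408, 1403 and 1463 counts in OC2-OE libraries, a 2.22-fold rise (log2 fold change 1.15 ± 0.06, edgeR adjusted p = 6.06e-16). It was the most abundant member per kilobase in both groups, at 40.8 ± 5.5 CPM per kilobase in control and 90.3 ± 4.8 in OC2-OE cells (SD, n = 3). UBE2L6, the enzyme that conjugates ISG15, went from 102, 75 and 65 to 226, 194 and 213 counts, by 1.30 ± 0.12 (edgeR adjusted p = 6.89e-19). The ligase HERC5 rose by 0.82 ± 0.10 and its neighbour and relative HERC6 by 1.13 ± 0.08. USP18 (ENSG00000184979.11, chr22:18150118-18177397, plus strand), the protease that removes ISG15 and that also restrains signaling at the type I interferon receptor, was the only member called lower. It had 859, 816 and 719 counts in control and 369, 363 and 387 counts in OC2-OE libraries, with every OC2-OE library below every control library. It fell by 1.18 on the log2 scale, with an SE of 0.06 (edgeR adjusted p = 1.80e-37). Its level in control cells was 11.3 ± 0.56 CPM per kilobase, below only ISG15 and ADAR among the tested members, and in OC2-OE cells it was 5.0 ± 0.26 (SD, n = 3). That rank depends on the annotated exon length. In CPM, the control mean of USP18 was 46.3, below those of ADAR, EIF2AK2, TRIM25, STAT2, OAS3 and IFIH1.

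**Figure D3:**
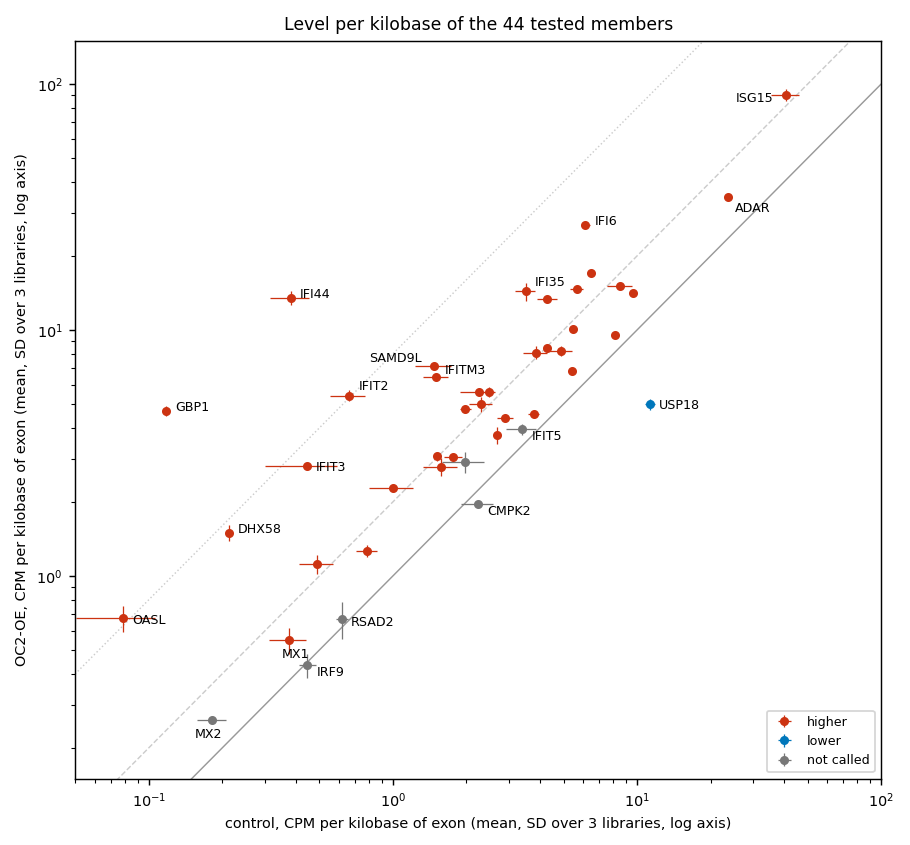
Level of the 44 tested members in control and OC2-OE cells, in CPM per kilobase of exon on log axes, as means with SD over 3 libraries. The solid line marks equal levels, and the dashed and dotted lines mark 2-fold and 8-fold higher levels in OC2-OE cells. GBP1 and IFI44 lie furthest above the line of equal levels, ISG15 is the highest in both groups, and USP18 lies below the line.

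The genes named for interferon-inducible (IFI) proteins and NMI, 6 members in all, ranged from large rises to near silence. IFI44 (ENSG00000137965.11, chr1:78649796-78664078, plus strand), a cytoplasmic antiviral protein, had 12, 13 and 15 counts in control and 557, 483 and 464 counts in OC2-OE libraries, a 35.2-fold rise (log2 fold change 5.14 ± 0.14, edgeR adjusted p = 1.21e-63). Its relative IFI44L ends 3650 bases upstream on the same strand and had 2, 0 and 2 counts in control and 1, 1 and 2 counts in OC2-OE libraries. IFI44L was not tested, at a mean of 0.0767 CPM in control and 0.0732 CPM in OC2-OE cells, although its promoter holds 2 ISRE cores. IFI6, a small mitochondrial or endoplasmic reticulum protein and the family's most abundant member per kilobase, went from 104, 101 and 92 to 477, 446 and 443 counts, by 2.12 ± 0.09 (edgeR adjusted p = 1.05e-43), with 23.1% of its exonic bases shared with a noncoding gene. IFI35, which binds NMI, went from 140, 104 and 111 to 591, 471 and 480 counts, by 2.04 ± 0.09 (edgeR adjusted p = 5.20e-44), whereas NMI rose by 0.48 ± 0.10. IFI27, often among the most strongly induced genes in other cells, had 7, 8 and 7 counts in control and 6, 6 and 7 counts in OC2-OE libraries and was not tested.

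The TRIM and SP100-family proteins, many of them found in nuclear bodies or acting as ubiquitin ligases, rose in 4 of 4 tested members with a median log2 fold change of 0.92. SP110 went from 80, 93 and 95 to 244, 187 and 225 counts, by 1.21 ± 0.12 (edgeR adjusted p = 1.69e-17). SP100 went from 406, 350 and 356 to 870, 723 and 784 counts, by 1.01 ± 0.06 (edgeR adjusted p = 5.36e-32). TRIM21, the cytosolic antibody receptor and the most abundant of the family per kilobase, went from 278, 312 and 260 to 559, 509 and 528 counts, by 0.83 ± 0.07 (edgeR adjusted p = 2.25e-20). TRIM25, the ubiquitin ligase that acts on RIG-I, rose by 0.32 ± 0.04. TRIM22 had 0, 0 and 2 counts in control and 2 counts in each OC2-OE library, a ratio of 2.83 with a 95% counting interval of 0.507 to 28.7.

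DTX3L and PARP9 form a complex that ubiquitinates histones, and their genes overlap on opposite strands of chromosome 3. DTX3L went from 583, 527 and 526 to 1085, 1027 and 1078 counts, by 0.88 ± 0.05 (edgeR adjusted p = 1.74e-32), and was the most abundant of the 3 genes of this family per kilobase. PARP9 went from 279, 253 and 282 to 507, 477 and 508 counts, by 0.79 ± 0.07 (edgeR adjusted p = 7.09e-19). The difference between these partners was not tested. PARP14, 105635 bases from DTX3L, went from 379, 360 and 314 to 979, 819 and 895 counts, by 1.27 ± 0.06 (edgeR adjusted p = 6.73e-41).

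Of the remaining effectors, the SAMD9 pair rose and the CMPK2 and RSAD2 pair did not. SAMD9L, a translation-inhibiting tumor suppressor, went from 255, 203 and 158 counts to 1095, 1005 and 1029 counts, a 4.8-fold rise (log2 fold change 2.26 ± 0.07, edgeR adjusted p = 7.96e-57). SAMD9, 12032 bases away on chromosome 7 and the most abundant of this group per kilobase, went from 832, 734 and 724 to 2226, 2073 and 2067 counts, by 1.39 ± 0.04 (edgeR adjusted p = 3.39e-60). CMPK2, a mitochondrial nucleotide kinase, and RSAD2, or viperin, which makes a chain-terminating nucleotide, are neighbours in opposite orientation with overlapping ends. CMPK2 had 176, 191 and 140 counts in control and 167, 151 and 151 counts in OC2-OE libraries, a log2 fold change of -0.19 ± 0.11 (edgeR adjusted p = 0.0972). RSAD2 had 66, 55 and 60 counts in control and 84, 54 and 70 counts in OC2-OE libraries, a log2 fold change of 0.12 ± 0.17 (edgeR adjusted p = 0.542). The groups overlapped for both genes. XAF1, a pro-apoptotic protein, had 3, 0 and 2 counts in control and 1, 0 and 4 counts in OC2-OE libraries, and EPSTI1 had 11, 8 and 7 against 6, 4 and 10 counts, so neither was tested.

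Several members are neighbours on their chromosome. Of 15 pairs of members that follow each other within 150000 bases, 8 pairs held 2 genes called higher and 5 pairs held 1. In the CMPK2 and RSAD2 pair and the IFITM2 and IFITM1 pair no gene was called. For comparison, 37 of the 44 tested members and 27.8% of all tested genes were called higher. Pairs of other neighbouring genes were not counted, so these counts describe the members and say nothing about neighbours.

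ISRE cores were found in members that rose, in members that were not called and in members that were not tested. The core was present in 7 of 9 windows of members that rose by at least 2 on the log2 scale (77.8%), in 16 of 32 windows of the other members called higher (50%), in 2 of 7 windows of members tested and not called higher (28.6%) and in 6 of 8 windows of members that were not tested (75%). Counted by gene, the shares were 5 of 7 (71.4%), 14 of 23 (60.9%), 2 of 4 (50%) and 5 of 6 (83.3%), in the same order. Over all tested genes that were called higher, 3.66% of windows and 5.01% of genes held the core. IFIH1, IFIT5, HERC5 and IFI6 each had 3 cores in a window, and their log2 fold changes were 0.55, 0.22, 0.82 and 2.12. SAMD9L and IFI35 rose by 2.26 and 2.04 with no match to these letters. The windows that hold a match are not all distinct promoters, since some genes have several starts and overlapping windows. The matches of PARP9 and DTX3L, on opposite strands, are the same bases, so the shares by gene also count that core for both genes.

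**Figure D4:**
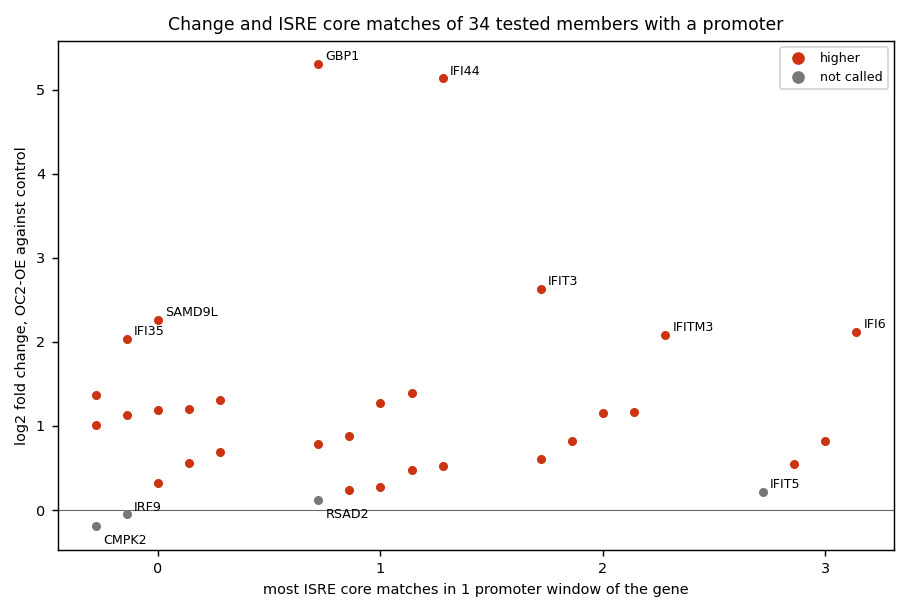
Log2 fold change, OC2-OE against control, of the 34 tested members with a promoter window, by the most ISRE core matches in 1 window. Each point is a gene, spread sideways only for legibility, and color gives the call at an adjusted p below 0.001. Genes with 0 matches include SAMD9L at 2.26, and genes with 3 matches include IFIT5 at 0.22.

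The GAS, searched as TTCNNNGAA on both strands, was present in 15 of the 56 member windows (26.8%) and in 7.66% of all windows, and in 6 member windows it shared bases with an ISRE core. Among the 9 windows of members that rose by at least 2, only that of IFI35 held a GAS. The letters ATTGAT, the core of sequences bound by ONECUT factors, were present in 4 of the 56 member windows (7.14%), in 6.26% of all windows, in 3.82% of windows of tested genes and in 3.99% of windows of genes called higher. All 4 were among the 41 windows of members called higher (9.76%), and 2 were among the 9 windows of members that rose by at least 2 (22.2%). The genes were ADAR, GBP1 and SAMD9L. The 2 ADAR windows overlap and hold the same match, which begins at or after the start. Counted by gene, the letters were present in 3 of 40 members (7.5%) and in 7.64% of all genes with a window. Among genes called higher, the shares were 3 of 30 members (10%) and 5.43% of all genes. Whether these shares differ was not tested. The GBP1 match lay 70 to 65 bases before the start, and SAMD9L held 2 matches, shown in capitals in the 180 bases before its start.
SAMD9L, chr7:93148386-93148565, minus strand: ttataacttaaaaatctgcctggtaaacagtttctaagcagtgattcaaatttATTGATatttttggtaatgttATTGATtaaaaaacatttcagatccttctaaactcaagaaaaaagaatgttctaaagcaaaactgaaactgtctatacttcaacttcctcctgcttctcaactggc

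A second list of 65 genes of the interferon pathway, chosen by role and holding none of the 52 members, was read in the same fit. Of these, 44 could be tested, 32 were higher, 4 were lower and 8 were not called, beside 27.8% of all tested genes called higher and 28.7% called lower. The 5 genes TLR3, RIGI, CXCL11, HLA-DRA and APOL1 passed the filter on low counts only through their OC2-OE libraries, so their place among the genes called higher is a description. With at least 10 counts required in every library, 39 of the genes were tested and 27 were higher. None of the 10 interferon genes on the list reached the test. Together they had 52 counts in control and 17 counts in OC2-OE libraries, and 5 of them had 0 counts throughout. Of the IFNA genes the list held only IFNA1 and IFNA2, and interferon genes outside it were not read. IFNB1, the first type I interferon that most cells make, had 0, 1 and 0 counts in control and 1, 0 and 0 in OC2-OE libraries. IFNG had 13, 12 and 7 counts in control and 1, 3 and 0 counts in OC2-OE libraries, so it was not higher where the members were. Interferon protein was not measured here.

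All 6 receptor chains were tested, and 3 were called higher, 1 lower and 2 not called. IFNGR1 went from 387, 331 and 358 to 706, 593 and 657 counts, by 0.78 ± 0.06 (edgeR adjusted p = 5.92e-22). IFNAR2 rose by 0.69 ± 0.09 and IFNLR1 by 0.59 ± 0.09. The log2 fold change of IFNGR2 was 0.11 ± 0.05 (edgeR adjusted p = 0.0484) and that of IL10RB was -0.03 ± 0.17 (edgeR adjusted p = 0.872), and neither was called. IFNAR1, the other chain of the type I receptor, went from 1549, 1377 and 1355 to 1382, 1265 and 1294 counts and fell by 0.20 with an SE of 0.04 (edgeR adjusted p = 3.55e-06). The receptor kinases rose by small amounts, 0.65 ± 0.02 for JAK1, 0.53 ± 0.05 for TYK2 and 0.37 ± 0.09 for JAK2. Of 5 negative regulators, PTPN6 rose by 0.32 ± 0.03 and PTPN2 fell by 0.21 with an SE of 0.05, and SOCS1, SOCS3 and PIAS1 were not called. SOCS1, which blocks the Janus kinases, had 10, 13 and 11 counts in control and 15, 11 and 17 counts in OC2-OE libraries (log2 fold change 0.25 ± 0.37, edgeR adjusted p = 0.545).

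Of 9 sensors, adaptors, kinases and factors upstream of interferon, 8 were tested, 7 were called higher and the DNA sensor CGAS fell. TLR3 and RIGI, which are among the 7, passed the filter on low counts only through their OC2-OE libraries, so their rises are a description. TLR3, the endosomal receptor for double-stranded RNA, went from 21, 3 and 10 counts to 98, 68 and 72 counts, by 2.71 ± 0.26 (edgeR adjusted p = 7.45e-16). RIGI went from 5, 8 and 15 to 48, 53 and 69 counts, by 2.50 ± 0.29 (edgeR adjusted p = 1.21e-13), but it shares 43.2% of its exonic bases with another annotated gene, which lowers its counts. IKBKE, a kinase of IRF3 and IRF7, went from 28, 22 and 13 to 104, 99 and 116 counts, by 2.25 ± 0.20 (edgeR adjusted p = 3.47e-20). CGAS, the sensor of cytosolic DNA, went from 638, 555 and 596 to 454, 414 and 454 counts and fell by 0.52 with an SE of 0.06 (edgeR adjusted p = 4.17e-13). Its partner STING1 was almost silent, with 7, 3 and 2 counts in control and 1, 0 and 0 counts in OC2-OE libraries.

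**Figure D5:**
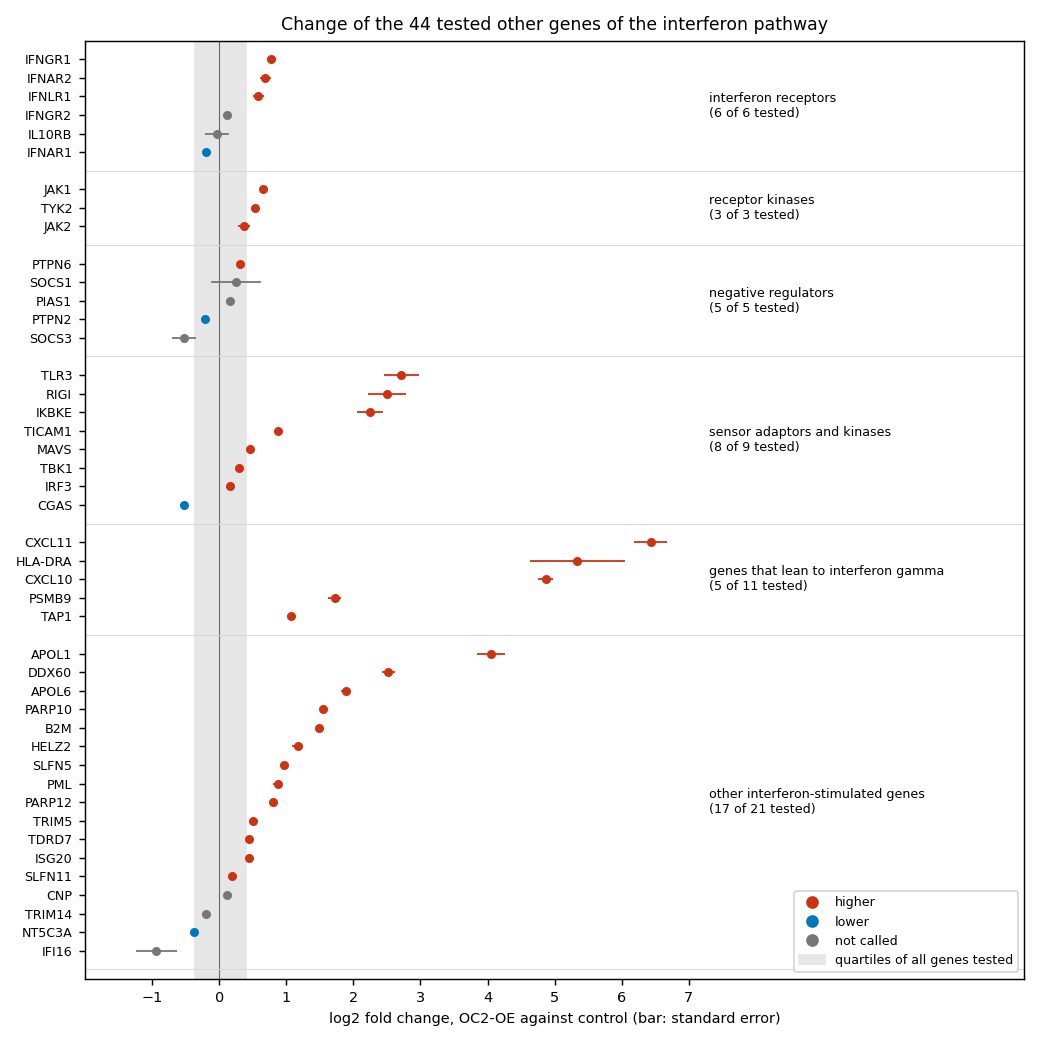
Log2 fold change, OC2-OE against control, of the 44 tested genes of the wider interferon pathway, grouped by role, with the number tested of each group. Points are estimates from edgeR, bars are standard errors, colors give the call at an adjusted p below 0.001, and the grey band spans the quartiles of all tested genes. Receptors, receptor kinases and negative regulators lie between -0.52 and 0.78, while CXCL11 at 6.43 and CXCL10 at 4.86 are the furthest to the right apart from HLA-DRA, which has 1 count in control.

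A further part of the pathway list held genes that lean toward interferon gamma. Of 11 such genes, 5 were tested and all 5 were called higher. CXCL11 and HLA-DRA are among those that passed the filter only through the OC2-OE libraries, and the other 6 genes had few or no counts in either group, so the count of 5 describes the genes that passed. CXCL11, a chemokine for activated T cells, had 3, 2 and 2 counts in control and 212, 229 and 231 counts in OC2-OE libraries (log2 fold change 6.43 ± 0.25, edgeR adjusted p = 9.71e-49). CXCL10, a ligand of the same receptor, went from 33, 17 and 17 to 751, 653 and 672 counts, by 4.86 ± 0.12 (edgeR adjusted p = 1.03e-69). CXCL9, the remaining ligand of that receptor and the one most tied to interferon gamma, had 0, 1 and 0 counts in control and 0 counts in each OC2-OE library. HLA-DRA, an MHC class II chain, had 1, 0 and 0 counts in control and 17, 18 and 23 counts in OC2-OE libraries, a ratio of 54.8 with a 95% counting interval of 9.45 to 2201. CIITA, the coactivator of MHC class II genes, had 1, 2 and 4 against 7, 5 and 3 counts and was not tested. GBP5, a guanylate-binding protein that interferon gamma induces strongly in other cells, had 3, 1 and 2 counts against 2, 2 and 1, and GBP4 had 2, 1 and 1 against 5, 11 and 8, while their relative GBP1 rose 39.6-fold. PSMB9 and TAP1, of the antigen-processing machinery, rose by 1.72 ± 0.09 and 1.06 ± 0.05.

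Of 21 other interferon-stimulated genes, 17 were tested, 13 rose and NT5C3A fell by 0.37 with an SE of 0.03. APOL1, a pore-forming apolipoprotein, went from 8, 10 and 10 counts to 174, 167 and 155 counts, a 16.5-fold rise (log2 fold change 4.05 ± 0.21, edgeR adjusted p = 1.53e-37). Since APOL1 passed the filter on low counts only through its OC2-OE libraries, its rise is a description. DDX60, an RNA helicase of the RIG-I pathway, went from 90, 92 and 62 to 527, 465 and 490 counts, by 2.52 ± 0.10 (edgeR adjusted p = 3.62e-49). APOL6 went from 229, 239 and 207 to 913, 843 and 883 counts, by 1.88 ± 0.07 (edgeR adjusted p = 4.44e-53). IFI16, a sensor of nuclear DNA, had 25, 30 and 23 counts in control and 11, 12 and 20 counts in OC2-OE libraries, with groups that did not overlap, and was not called (log2 fold change -0.94 ± 0.31, edgeR adjusted p = 0.00467). The immune cell markers CD14 and LYZ moved in the same direction as the members, by 0.71 ± 0.15 and 2.44 ± 0.33 on the log2 scale, and their part in these results was not tested. LYZ passed the filter only through its OC2-OE libraries. The defining markers of T cells, natural killer cells and plasmacytoid dendritic cells among them, CD3E, NKG7 and CLEC4C, were at 0 in every library. Of 9 fibroblast and endothelial markers, 5 were tested, COL1A1 and PDGFRB were called higher and CDH5 was called lower. PDGFRB passed the filter only through its OC2-OE libraries and CDH5 only through its control libraries. The list summed to 24.1 to 27.8 CPM in control and 31.5 to 34.5 CPM in OC2-OE cells.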

How the data were processed

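The deposited values were raw counts of read pairs per gene, 1 table for each of the 6 libraries. Per the file headers and the submitters' processing notes, the authors aligned reads with STAR version 2.7.9a and counted them by strand over all exons of each gene with featureCounts version 1.6.0, on GENCODE release 42 and GRCh38. Reads that fit 2 genes are not counted by these settings.

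Counts were read into R version 4.3.3, scaled with TMM in edgeR version 4.0.16, and 17307 genes passed filterByExpr. The test was edgeR's quasi-likelihood test, two-sided, with robust dispersions, no replicate term and Benjamini-Hochberg adjustment over all 17307 genes. The threshold was an adjusted p of 0.001. The SE was obtained from the size of the log2 fold change and the F statistic, as their quotient after taking the root of F. CPM used the TMM library sizes, and levels per kilobase divide by the length of all annotated exons. Ranks of genes per kilobase therefore depend on that annotated length, which can exceed the length of the transcript. The study describes independent experiments, without saying what was repeated, so the p-values measure the spread between these 3 libraries per group.

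The members, the gene lists and the named genes were chosen with earlier results of these data known. All members are accounted for. Counts per library are given for up to 3 members of each family with the largest change, every member called lower, the most abundant per kilobase, and members named that did not pass. Of each pathway list, up to 3 called genes with the largest change are named, and further pathway genes were named after their values were seen. The test was tested on simulated counts for this comparison over 17034 genes. It recovered 82 of 100 genes changed by 0.5 and 100 of 100 changed by 2 on the log2 scale, with 0 false calls among 16834. The changed genes were drawn only from genes above a minimum count, and every gene had the same dispersion. Far fewer genes changed than in the data. Recovery of members with few counts was therefore not measured. Promoter sequences are from RefSeq on GRCh38.p14. Alternatives used DESeq2 version 1.42.0 and limma version 3.58.1, other filters and thresholds, and left out each library. Intervals and limits for low counts cover counting error only. Protein sequences of the IFITM genes were not used here. A gene first placed on the pathway list was taken off it and is not reported here.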

Additional observations from a re-analysis of the deposited data

How the results depend on the processing

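Every called member kept its direction under each of the alternatives run, which were DESeq2 size factors, library sizes alone, DESeq2's Wald test, limma voom, no filter, at least 10 counts in every library, a replicate block, ONECUT2 left out and each library left out. With at least 10 counts in every library, OASL was not tested. Leaving out 1 library gave 35 to 37 members higher, 1 lower and a median log2 fold change of 0.97 to 1.00, and 29 to 31 pathway genes higher and 3 to 5 lower. When a change of at least 1 on the log2 scale was also required, 22 members and 14 pathway genes were higher and 0 pathway genes lower. At an adjusted p below 0.05, 7 pathway genes were lower. With no filter on low counts all 52 members were tested and their median was 0.86, since the near-silent members enter it. PLSCR1 was not called with DESeq2's Wald test (adjusted p = 0.00897), limma voom (0.00119), no filter (0.00125) or the block (0.00102), and MX1 was not called with DESeq2's Wald test (0.0013). IFITM2 was called with library sizes alone (0.000451), without control replicate 3 (0.000513) and without OC2-OE replicate 2 (0.000758). The uncalled IRF9 and RSAD2 had no stable sign, with log2 fold changes of -0.11 to 0.046 and -0.00058 to 0.24 when 1 library was left out. Same-numbered libraries did not deviate together, with correlations of 0.0011, 0.030 and 0.025, so the numbers were not taken as pairs. With the replicate block 36 members and 32 pathway genes were higher. Depth limits the 8 members below the filter, which had at most 11 counts in any library.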
